A study of Mus musculus with 2 samples.

Results

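Filaggrin (Flg), filaggrin 2 (Flg2), hornerin (Hrnr) and repetin (Rptn) are fused S100 proteins of the cornifying epidermis, and their 4 rows were taken by symbol from the 19465 genes of the spatial count matrices. All 4 symbols were found once in each matrix. The data were 2 formalin-fixed, paraffin-embedded back skin sections of 10 μm, 1 from an S1pr2 fl/fl mouse and 1 from a mouse that is S1pr2 fl/fl K14-Cre. The sections are called S1pr2 fl/fl and K14-Cre from here on. Both mice were 8 weeks old, had been depilated 1 day before the first dose, and were given 62.5 mg of 5% imiquimod (IMQ) cream a day for 7 days, so both groups carried the floxed S1pr2 allele and the IMQ treatment, and neither group was untreated. K14-Cre expresses the recombinase from the keratin 14 promoter, which is active in basal keratinocytes. Each group was 1 library from 1 animal. No test between the genotypes was therefore possible, every interval given below is a 95% interval that covers counting error only, and genotype, animal, section and library cannot be told apart. The genes were selected on their difference between these 2 sections, with earlier results of the same counts known, so that difference is given as a description and supports nothing further.

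A fused S100 protein joins an S100-type calcium-binding head to a long tail of tandem repeats. Keratinocytes make these proteins late in differentiation, in the granular layer under the stratum corneum. Profilaggrin is stored in keratohyalin granules, is cleaved to filaggrin monomers that bundle keratin filaments, and is broken down to amino acids that hold water in the stratum corneum. Filaggrin 2 and hornerin are built in a similar way and enter the cornified layer, and repetin is a calcium-binding precursor of the cornified envelope. Loss of filaggrin is known as a cause of ichthyosis vulgaris and as a risk for atopic dermatitis.

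The 4 genes are neighbours in the epidermal differentiation complex on chromosome 3 and are read from the + strand (mm10, RefSeq annotation of GRCm38.p6). Flg2 lies at chr3:93197273-93221377, Flg at chr3:93273546-93293689, Hrnr at chr3:93319749-93333572 and Rptn at chr3:93393699-93399442. From the first base of Flg2 to the last base of Rptn the cluster spans 202.2 kb. The 120 bases before each annotated gene start are shown because the genes share a place and a strand. Capitals mark TGANTCA, a palindromic pattern, and TATAAA, the letters of the box that helps to place a transcription start, where a search of both strands found them in the RefSeq promoter windows (250 bases before to 50 after the start).
Flg2 promoter, chr3:93197153-93197272: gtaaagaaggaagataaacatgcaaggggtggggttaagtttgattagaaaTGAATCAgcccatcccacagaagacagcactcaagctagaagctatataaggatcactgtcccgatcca
Flg promoter, chr3:93273426-93273545: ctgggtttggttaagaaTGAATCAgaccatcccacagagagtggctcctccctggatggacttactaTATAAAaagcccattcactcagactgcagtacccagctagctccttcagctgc
Hrnr promoter, chr3:93319629-93319748: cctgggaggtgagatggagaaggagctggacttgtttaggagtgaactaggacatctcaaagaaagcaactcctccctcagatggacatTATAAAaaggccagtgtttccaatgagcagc
Rptn promoter, chr3:93393579-93393698: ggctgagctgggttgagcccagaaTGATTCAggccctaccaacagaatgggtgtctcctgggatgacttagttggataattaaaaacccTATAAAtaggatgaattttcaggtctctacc
TGANTCA was found in 3 of the 4 promoters, 69 bases before the start in Flg2, 103 in Flg and 96 in Rptn, and these 7 letters were in 7.81% of all 32817 promoter windows of the same length. TGAGTCA, the core of an AP-1 site, fits that pattern and was in none of the 4, against 5.20% of all windows (both strands). TATAAA was found in 3 of the 4, 53 bases before the start in Flg and 31 in both Hrnr and Rptn, against 13.6% of all windows. Neither motif overlapped the other. A match says only that the letters are there.

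The S1pr2 fl/fl section held 1282 tissue spots with 5315351 UMIs (unique molecular identifiers, 1 for each hybridised probe pair counted), and the K14-Cre section 981 spots with 2845826. Spots with at least 500 UMIs were used, 1096 and 947 respectively. The barcodes name array positions, and the sections had 357 of them in common. The keratin share of a spot is the UMIs of Krt5, Krt14, Krt1 and Krt10 over all its UMIs, and a spot with at least 1% was called keratinocyte-rich. In each section, all 15 keratinocyte markers were higher in these spots than in the others. Krt5, Krt14, Krt1 and Krt10 are among the 15 and set the label, so for them this was largely fixed in advance. There were 811 keratinocyte-rich spots in S1pr2 fl/fl (74.0%, median 4461 UMIs) and 290 in K14-Cre (30.6%, median 2306.5 UMIs). The median keratin share of the spots used was 1.90% in S1pr2 fl/fl and 0.324% in K14-Cre. The label thus took in most spots of the first section and does not mark the epidermis alone. Muscle-rich spots, with muscle markers at 1% or more of UMIs and keratins below 1%, numbered 204 and 533. S1pr2 itself gave 154 UMIs in S1pr2 fl/fl and 54 in K14-Cre, and in keratinocyte-rich spots 102 (24.8 CPM, counts per 1000000 UMIs) and 16 (18.4 CPM). Since where the S1pr2 probes lie relative to the floxed part is not given in the sources used here, this does not check the deletion.

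All 4 genes had fewer UMIs in the K14-Cre section. Flg, the storage form of filaggrin, gave 17639 UMIs in S1pr2 fl/fl and 493 in K14-Cre, which are 3318 and 173 CPM over all tissue spots. Hrnr gave 4706 and 152 UMIs, or 885 and 53.4 CPM. Rptn gave 3566 and 133 UMIs, or 671 and 46.7 CPM. Flg2 was the sparsest, with 231 and 33 UMIs, or 43.5 and 11.6 CPM. The number of probes for each gene is not given in the sources used here, so levels are compared between spots and sections and not between genes. Cross-hybridisation between the repeats of these genes was not tested. The map of the summed signal shows it along the whole outer edge of the S1pr2 fl/fl section, with lower values through the tissue below, and as scattered spots along the edge of the other section.

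**Figure D1:**
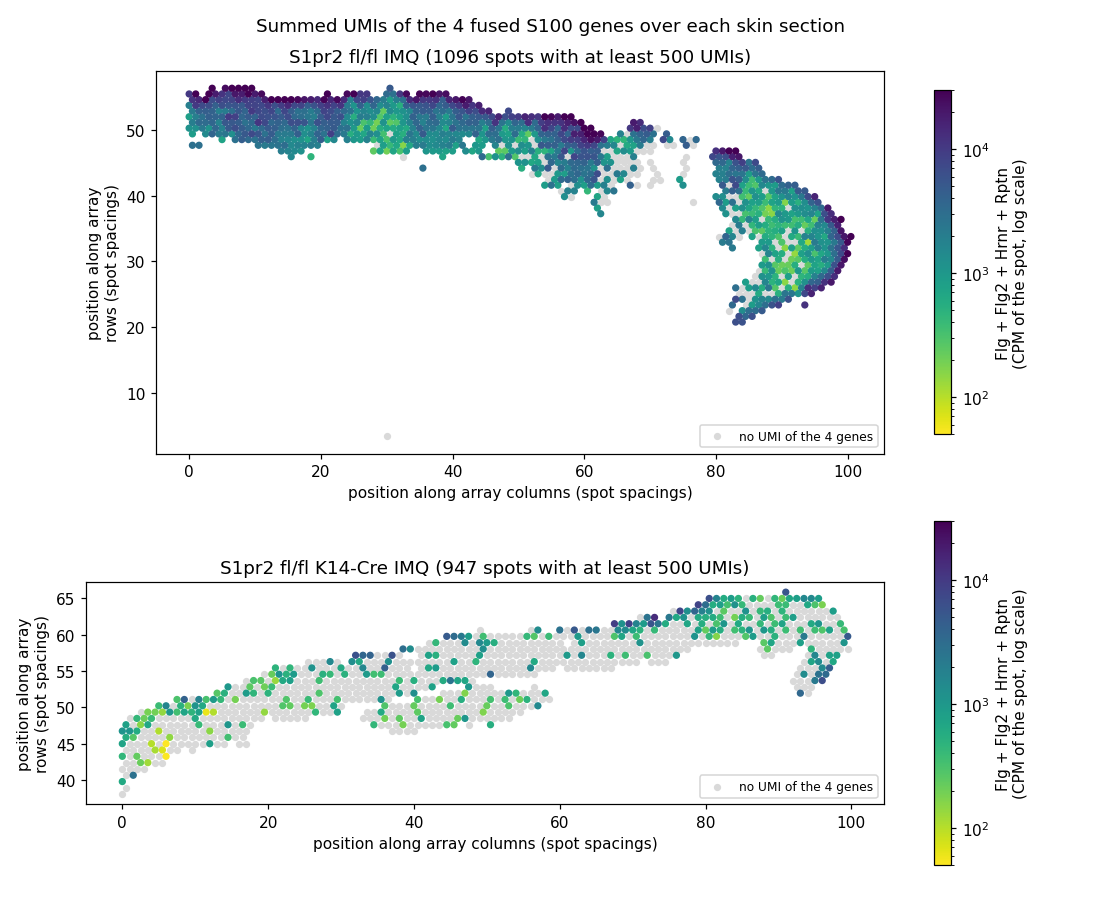
Each point is a spot with at least 500 UMIs, placed by its array column (x) and array row (y) in spot spacings, and its colour is the summed CPM of Flg, Flg2, Hrnr and Rptn in that spot on a log scale, grey where none was counted. The 1096 S1pr2 fl/fl spots are darkest along the outer edge at the top and right, and most of the 947 K14-Cre spots are grey.

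Depth was measured in array rows below the outermost tissue spot, with the outer side set from the keratins. Flg in S1pr2 fl/fl was 15643 CPM in the outermost row (66 spots), 7359 in the next, 3048 in rows 2 to 3, 1376 in rows 8 to 11 and 2214 from row 12 on. Hrnr stood at 5741 CPM in the outermost row, 2002 in the next, 736 in rows 2 to 3, 263 in rows 8 to 11 and 451 from row 12 on. Rptn had 3657, 1495, 662, 275 and 235 CPM in the same rows. Flg and Hrnr were thus higher again in the deepest rows, where the keratins also stood at 22254 CPM after 12834 in rows 8 to 11. Without the curled right end of the section, described below, the rise of Flg and the keratins was absent. Flg was then 1187 CPM in rows 8 to 11 and 736 from row 12 on (15 spots), and the keratins 9428 and 7561. Hrnr was 198 and 268, the latter on 4 UMIs. Flg, Hrnr and Rptn were highest in the outermost row, and less than 50% of that level was left 1 row below. The keratins had a flatter course there, with 71622 CPM and 66842 CPM in these 2 rows. Summed over the 4 genes, 351 UMIs were counted per 1000 keratin UMIs in the outermost row, 164 in the next and 108 in rows 2 to 3. This number did not fall steadily with depth. It was 127 in rows 4 to 5, 149 in rows 6 to 7, 151 in rows 8 to 11 and 131 from row 12 on. Flg2 was shallower, with 89.8 CPM in the outermost row, 73.8 in the next, 61.2 in rows 2 to 3 and 46.1 in rows 4 to 5.

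In K14-Cre, Flg and Hrnr were also highest in the outermost row and lower in the next ones, at a lower level. Flg was 768 CPM in the outermost row (78 spots), 404 in the next, 108 in rows 2 to 3, 79.3 in rows 8 to 11 and 137 from row 12 on (interval 87.1 to 206). Hrnr was 303, 112, 36.0, 30.3 and 17.9 CPM in the same rows, and its intervals from row 4 on overlapped. Without the curled end of this section Flg was 55.0 CPM in rows 8 to 11 and 39.9 from row 12 on (6 UMIs). Rptn did not separate the outermost row, at 89.6 CPM (interval 51.2 to 146), from the next, at 107 CPM (interval 75.1 to 147). Flg2 had no UMI in the 78 spots of the outermost row, which at 3 counts allows a share of up to 3.85% of spots, and 20 of its 33 UMIs lay in rows 2 to 3 at 34.3 CPM. Per 1000 keratin UMIs, the 4 genes summed to 28.7 in the outermost row, 19.2 in the next and 17.3 in rows 2 to 3. Further in, the sum was 49.0 in rows 4 to 5, 90.7 in rows 6 to 7 and 80.6 in rows 8 to 11. From row 12 on it was 111, on 297 keratin UMIs. In every depth bin of the plot of levels by depth, Flg, Hrnr and Rptn of K14-Cre were below S1pr2 fl/fl in CPM, and the intervals did not overlap. The share of all genes that do the same was not computed. Keratin content was unlike, at 14711 CPM in rows 6 to 7 of S1pr2 fl/fl and 1465 in K14-Cre. Per 1000 keratin UMIs, Rptn was higher in K14-Cre in rows 6 to 7 (23.3 against 16.3) and from row 12 on (20.2 against 10.5, on 6 UMIs). It was lower in the other bins, and Flg and Hrnr were lower in all. The S1pr2 fl/fl level of Flg in rows 8 to 11 exceeded the K14-Cre level in the outermost row.

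**Figure D2:**
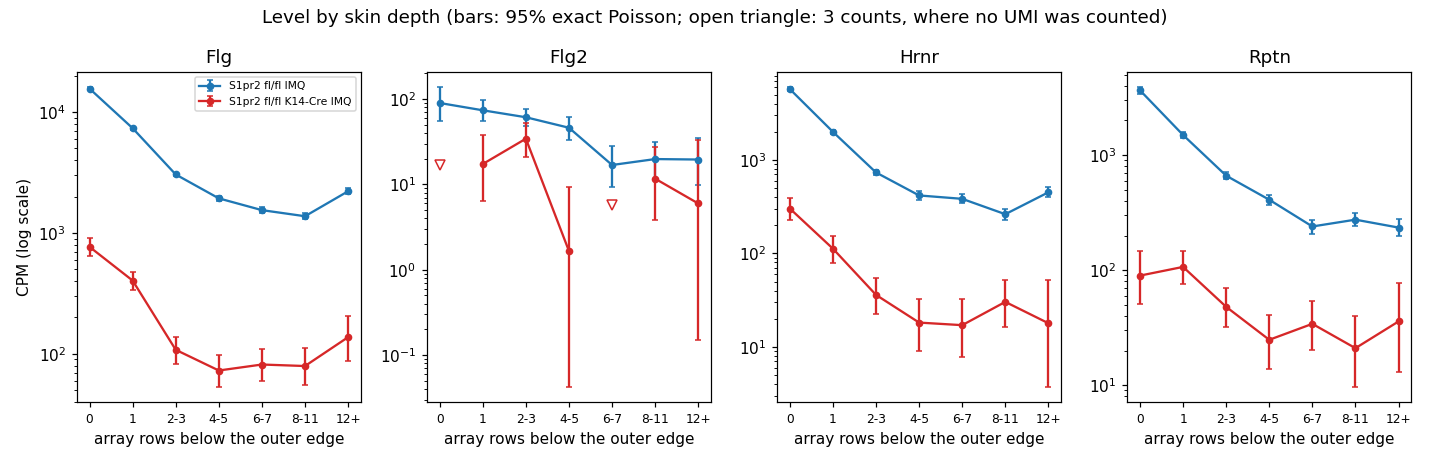
Level of each gene in CPM (log scale) against the number of array rows below the outer edge, for S1pr2 fl/fl IMQ in blue and S1pr2 fl/fl K14-Cre IMQ in red, with 95% exact Poisson intervals as bars and an open triangle at 3 counts where no UMI was counted. Flg goes from 15643 CPM in the outermost row to 1376 in rows 8 to 11 and 2214 from row 12 on in S1pr2 fl/fl, and from 768 to 79.3 and 137 CPM in S1pr2 fl/fl K14-Cre. The curled right end of both sections is included.

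The contrast between the 2 outer rows and the rows from 8 inwards summarises the gradient. For the 4 genes summed it was 6.24-fold in S1pr2 fl/fl and 5.18-fold in K14-Cre. For the keratins it was 4.11-fold and 20.2-fold. The sum thus had the steeper contrast in the first section and the keratins in the second. In K14-Cre this turned when depth was taken as the distance to the nearest tissue-free position, with a log2 contrast of 1.73 (interval 1.47 to 2.00) for the sum and 1.43 (1.39 to 1.48) for the keratins. By gene, S1pr2 fl/fl gave 5.53-fold for Flg, 3.95-fold for Flg2, 8.71-fold for Hrnr and 7.87-fold for Rptn. K14-Cre gave 5.52-fold for Flg, 6.60-fold for Hrnr and 4.01-fold for Rptn, and for Flg2 1.14-fold on the log2 interval from -1.72 to 2.09. The right end of both sections was curled, so that some deep rows there lay near a second surface. Without it the summed contrast was larger, 9.78-fold in S1pr2 fl/fl and 8.87-fold in K14-Cre.

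Signal of these genes was also counted in muscle-rich spots, whose muscle should lack them. These spots were not free of keratinocyte signal and were not alike in the sections. Keratinocyte markers summed to 1.33% of UMIs in muscle-rich spots of S1pr2 fl/fl and 0.280% in those of K14-Cre. In the muscle-rich spots of S1pr2 fl/fl, Flg was at 850 CPM, Hrnr at 227, Rptn at 189 and Flg2 at 9.13. The 4 genes had nearly the same proportions there as in the keratinocyte-rich spots of that section: Flg made up 66.7% of the sum there and 67.6% in keratinocyte-rich spots, Hrnr 17.8% and 18.0%, and Rptn 14.8% and 13.5%. Per 1000 keratin UMIs, 184 UMIs of the 4 genes were counted in muscle-rich and 157 in keratinocyte-rich spots. In K14-Cre, the muscle-rich spots had Flg at 65.4 CPM, Hrnr at 17.1, Rptn at 29.4 and Flg2 at 3.06. There the proportions differed: Flg made up 56.9% of the sum in muscle-rich and 64.2% in keratinocyte-rich spots, Rptn 25.5% and 12.5%, and 72.4 and 21.1 UMIs of the 4 genes were counted per 1000 keratin UMIs. Keratinocyte-rich spots of that section had Flg at 395 CPM, which is below the level in the muscle-rich spots of S1pr2 fl/fl. The share of spots with a Flg UMI in muscle-rich spots was 70.1% in S1pr2 fl/fl (median 3638.5 UMIs) and 14.4% in K14-Cre (median 2454 UMIs). Where these UMIs came from was not tested, and a UMI in a deep spot is not read as expression there. The 1226 olfactory, vomeronasal, taste and trace amine receptor genes, which skin should lack, averaged 2.20 CPM a gene in keratinocyte-rich spots of S1pr2 fl/fl and 8.74 CPM in those of K14-Cre. In the latter, 23 of them were at or above Flg2, 1 was at or above Hrnr, 1 at or above Rptn and none at or above Flg, so the Flg2 level of that section lay close to this background.

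The keratinocyte-rich label did not cover the same tissue in both sections. In rows 8 to 11 the keratins stood at 12834 CPM in S1pr2 fl/fl, above the 1% cut, and at 1765 CPM in K14-Cre. Keratinocyte-rich spots held 95.7% of the Flg UMIs of S1pr2 fl/fl and 71.1% of those of K14-Cre, with 78.1% and 30.7% of all UMIs. The level in these spots was 4071 CPM in S1pr2 fl/fl and 395 in K14-Cre for Flg, 1080 and 119 for Hrnr, 814 and 76.9 for Rptn, and 53.0 and 24.1 for Flg2. Against the other spots of the same section the sum of the 4 was 5.95-fold higher in S1pr2 fl/fl and 4.65-fold higher in K14-Cre. Rptn of K14-Cre had the weakest enrichment of the 4 genes in either section, at 2.44-fold. Its log2 interval, 0.77 to 1.81, overlapped that of Flg2 of K14-Cre, 0.89 to 3.14. From 2% keratins on, Flg2 of K14-Cre was the weakest, at 2.13-fold (log2 interval -0.06 to 2.18), and Rptn was at 3.05-fold. The counts were gathered in few spots. The 55 richest of 1096 S1pr2 fl/fl spots held 43.8% of the Flg UMIs, 42.6% of Hrnr, 41.6% of Rptn and 67.1% of Flg2, and at most 350 UMIs of Flg fell in 1 spot. The Flg2 share also follows from its low count, 228 UMIs in 130 of the 1096 spots. Krt10, a suprabasal keratin, reached 46.4% in its richest 55 spots, and the basal keratin Krt14 27.0%. In K14-Cre the 48 richest of 947 spots held 59.1% of Flg, 81.3% of Hrnr, 76.7% of Rptn and 100% of Flg2, with a maximum of 21 UMIs of Flg, values that also follow from the low counts.

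At equal keratin share, combined over the bins from 1% keratins on, Flg, Hrnr and Rptn were 6.57 to 8.40 times lower in K14-Cre. In spots with 4 to 8% keratins (231 spots of S1pr2 fl/fl and 54 of K14-Cre), Flg was 5593 and 869 CPM, Hrnr 1830 and 314, Rptn 1298 and 105, and Flg2 62.0 and 10.5. In spots with 1 to 2% keratins, Flg was 1515 and 195 CPM, Hrnr 345 and 25.8, and Rptn 335 and 33.1. Flg2 had 30.2 and 33.1 CPM there. Flg was higher in each higher bin from 1% on in both sections, while Rptn of K14-Cre was 86.1 CPM at 0.25 to 0.5% keratins and 105 CPM at 4 to 8%. Rptn of S1pr2 fl/fl was 105 CPM at 0.25 to 0.5%, a log2 ratio of -0.29 (interval -1.18 to 0.63), so Rptn did not separate the sections in that bin. At 0.5 to 1% the log2 ratio of Rptn was -2.18 (interval -3.27 to -1.27).

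**Figure D3:**
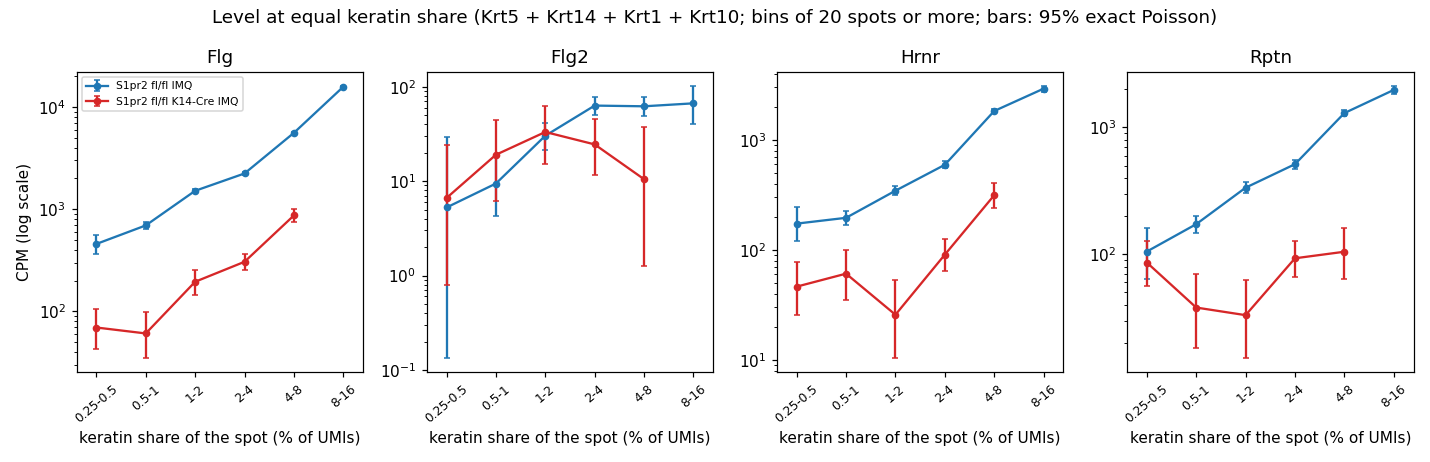
Level of each gene in CPM (log scale) against the keratin share of the spots in bins that double in width, for bins of at least 20 spots, with 95% exact Poisson intervals. From 1% keratins on, S1pr2 fl/fl (blue) lies above K14-Cre (red) for Flg, Hrnr and Rptn, for example 5593 against 869 CPM for Flg at 4 to 8%, while Flg2 is 30.2 against 33.1 CPM at 1 to 2%.

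Combined over the keratin bins from 1% (Mantel-Haenszel rate ratio, K14-Cre over S1pr2 fl/fl), the log2 ratio was -2.79 for Flg (interval -2.95 to -2.64, 6.94-fold lower), -2.72 for Hrnr (-2.998 to -2.434, 6.57-fold) and -3.07 for Rptn (-3.43 to -2.71, 8.40-fold). Flg2 was at -1.13 (-1.78 to -0.48, 2.19-fold), on 21 UMIs of K14-Cre. All 4 were thus past 2-fold lower. The ratio used the 3 bins that held spots of both sections. It left out the 57 spots of S1pr2 fl/fl with 8 to 16% keratins, which held 4742 Flg UMIs and had no counterpart in K14-Cre. Among the 15907 genes with at least 20 UMIs in keratinocyte-rich spots, 11.3% were past 2-fold lower and 28.1% past 2-fold higher, and the median log2 ratio of all of them was 0.26. Genes with a lower ratio than Flg made up 0.597% of the 15907, for Hrnr 0.654%, for Rptn 0.440% and for Flg2 9.07%. The cut of 20 UMIs takes in weak genes. The mean receptor gene stood at 2.20 CPM in keratinocyte-rich spots of S1pr2 fl/fl and at 8.74 CPM in those of K14-Cre. How far this background sets the shares of all genes was not tested. With the level of muscle-rich spots taken off in each section the log2 ratios were -2.53 for Flg, -1.05 for Flg2, -2.46 for Hrnr and -3.26 for Rptn. Markers of other cell types summed to 1.39% of UMIs for dermis (9 genes), 0.827% for muscle (7) and 0.184% for fat (7) in keratinocyte-rich spots of S1pr2 fl/fl, against 0.963%, 0.274% and 0.0981% in K14-Cre, with none of these genes at 0. Hair markers (6 measured) summed to 0.0026% and 0.0070%, and immune markers, which include the keratinocyte-expressed S100a8 and S100a9, to 1.59% and 0.706%. Blood markers (4) summed to 0.107% and 0.0173%, and sebaceous markers (7) to 0.160% and 0.118%. Their part in the differences was not tested.

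Equal keratin share did not mean an equal mix of keratins. Krt1 and Krt10, the suprabasal keratins, made up 40.7% of the 4 keratins in keratinocyte-rich spots of S1pr2 fl/fl and 15.5% in K14-Cre. Krt14 was 19081 and 20399 CPM there, and Krt10 9794 and 2739. Set against 1000 Krt1 and Krt10 UMIs, Flg was 261 in S1pr2 fl/fl and 87.2 in K14-Cre, Hrnr 69.2 and 26.4, Rptn 52.2 and 17.0, and Flg2 3.39 and 5.32. On this scale the log2 ratios were -1.58 for Flg, -1.39 for Hrnr and -1.62 for Rptn, closer to 0 than at equal share of all 4 keratins, and Flg2 turned to 0.65 (interval -0.07 to 1.30). Matched by bins of the Krt1 and Krt10 share (326 and 46 spots), the log2 ratios were -1.33 for Flg, -1.52 for Flg2 (interval -3.18 to 0.15), -1.85 for Hrnr and -3.75 for Rptn. Only bins that held spots of both sections entered these ratios, which left 2 bins. All 4 were past 2-fold lower there too, but so were 32.9% of the 8850 genes with 20 UMIs (14.1% were past 2-fold higher, median -0.35), and 25.8% of the genes had a lower ratio than Flg. Rptn kept the lowest of the 4 ratios, with 11.0% of genes below it, but on only 9 UMIs of K14-Cre (interval -4.69 to -2.80). Flg2 rested on 3 UMIs of K14-Cre there. Matched on the basal keratins Krt5 and Krt14 alone, Flg was at -3.49, Hrnr at -3.26, Rptn at -3.54 and Flg2 at -1.12. In the 2 outermost tissue spots of each array column, without regard to keratin, they were at -4.25, -4.04, -4.10 and -1.54 in the same order.

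**Figure D4:**
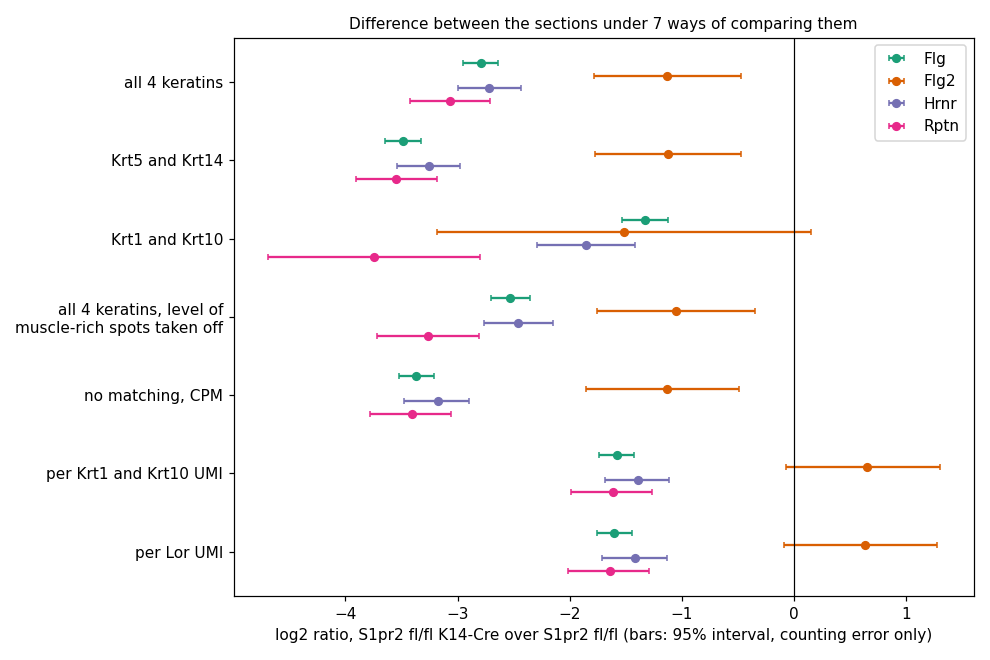
Log2 ratio of K14-Cre over S1pr2 fl/fl (x) for the 4 genes under 7 ways of comparing the sections (y), with 95% intervals for counting error as bars and a line at 0. Flg, Hrnr and Rptn lie left of 0 in all 7, at -2.79, -2.72 and -3.07 with all 4 keratins and -1.58, -1.39 and -1.62 per Krt1 and Krt10 UMI, while Flg2 goes from -1.13 to 0.65.

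Along the sections the difference was found throughout for the abundant genes. The keratinocyte-rich spots were divided into 4 stretches from end to end. Flg ranged from 2665 to 5649 CPM over the stretches of S1pr2 fl/fl and from 183 to 735 over those of K14-Cre. Hrnr ranged from 604 to 1439 and from 49.4 to 252 CPM, and Rptn from 499 to 1209 and from 54.3 to 102. For these 3 genes the stretches of the sections did not overlap, per CPM or per keratin UMI. The share of all genes whose stretches also do not overlap was not computed, so this is a description only. Flg2 ranged from 9.86 to 84.5 and from 7.57 to 39.5 CPM, and was lower in K14-Cre in 13 of the 16 pairs of stretches. Per Krt1 and Krt10 UMI, K14-Cre was lower in 16 of 16 pairs for Flg, 14 for Hrnr, 15 for Rptn and 7 for Flg2. Stretches of 1 section are not replicates.

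Co-detection was common in S1pr2 fl/fl and rare in K14-Cre. Of the keratinocyte-rich spots of S1pr2 fl/fl, 85.5% had a UMI of Flg, 68.1% of Hrnr, 67.4% of Rptn and 15.04% of Flg2. In K14-Cre the shares were 38.6%, 16.2%, 13.4% and 4.83%. Of the 811 spots of S1pr2 fl/fl, 342 had 3 of the 4 genes and 97 had all 4, and of the 290 spots of K14-Cre 7 had 3. None of the 290 had all 4, which at 3 counts allows a share of up to 1.03%. The low shares of the single genes in K14-Cre already make spots with 3 or 4 of them rare. No expected number was computed for these counts, so they do not show less sharing between the genes. After thinning every spot to 1000 UMIs, which left out 118 of the 1096 spots of S1pr2 fl/fl and 77 of the 947 of K14-Cre, 744 and 272 of the thinned spots were keratinocyte-rich, and Flg was seen in 70.8% and 23.2% of them, Hrnr in 42.9% and 7.72%, Rptn in 39.7% and 6.25% and Flg2 in 3.63% and 0.735%, so K14-Cre was also lower at an equal number of UMIs per spot. Reads per spot were not matched. In the muscle-rich spots of S1pr2 fl/fl, which also carried keratinocyte markers, 39.2% had a UMI of Hrnr and 33.8% of Rptn. Both were above the shares in keratinocyte-rich spots of K14-Cre, but without thinning and at unlike median UMIs per spot (3638.5 and 2306.5).

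**Figure D5:**
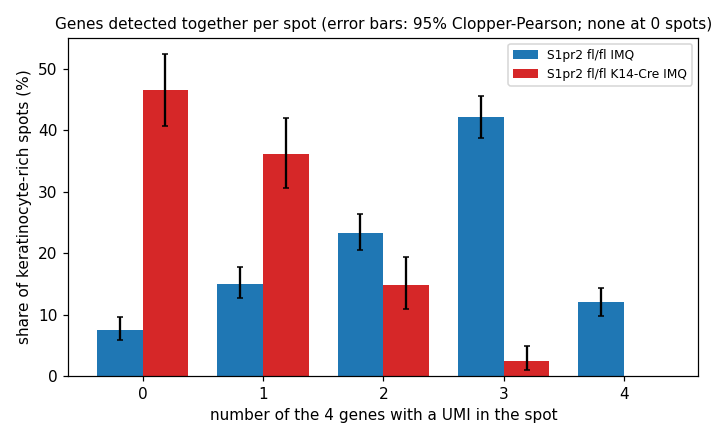
Share of keratinocyte-rich spots in percent (y) by how many of the 4 genes had a UMI in the spot (x), with 95% Clopper-Pearson intervals and none drawn where there were 0 spots. The most frequent number is 3 in S1pr2 fl/fl (42.2% of 811 spots) and 0 in S1pr2 fl/fl K14-Cre (46.6% of 290 spots).

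The pairs were set beside the number of shared spots that the product of their shares gives, over all keratinocyte-rich spots and within bins of total UMIs and keratin share. Hrnr and Rptn of S1pr2 fl/fl shared 439 spots (79.5% of those with Hrnr and 80.3% of those with Rptn), beside 372 from the plain shares and 426 within the bins. Flg and Hrnr shared 518, beside 472 and 506. In K14-Cre, Flg and Hrnr shared 29 spots, beside 18.2 and 23.5, while Hrnr and Rptn shared 5 (10.6% of the Hrnr and 12.8% of the Rptn spots), beside 6.32 and 7.70. As amounts, in S1pr2 fl/fl the correlation over 811 spots was 0.56 between Flg and Hrnr, 0.55 between Hrnr and Rptn and 0.45 between Flg and Rptn (Pearson's r of log2 counts per 10000 + 1). These points share a library, depth and keratin content. Over the 290 spots of K14-Cre it was 0.27 between Flg and Hrnr and at most 0.04 for the other pairs, which had few UMIs. Flg2 was at most 0.17 with any of the others in S1pr2 fl/fl.

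The genes most like each member over the keratinocyte-rich spots were taken by the mean of that correlation over both sections, among 3472 genes. The lists of Flg, Hrnr and Rptn overlapped in part, with Calm4 in each of them and Lor in those of Flg and Hrnr. For Flg they were Krt10 (0.57), loricrin (Lor, a main protein of the cornified envelope, 0.56), Krt1, Calm4 and Hrnr (0.41). For Hrnr they were Lor (0.43), Casp14, the protease that acts on filaggrin (0.42), Flg, Calm4 and Stfa3. For Rptn they were Fam25c (0.32), S100a9 and S100a8, the calprotectin subunits of inflamed epidermis and neutrophils (both 0.32), Calm4 and Krt6b (0.30), a keratin of activated epidermis. These means join unlike values: Rptn with S100a9 was 0.47 in S1pr2 fl/fl and 0.16 in K14-Cre, and Flg with Krt10 was 0.65 and 0.49. For Flg2 no gene passed 0.19, with Psmd3 first, which in counts this sparse is not read as a likeness.

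Genes that process filaggrin or sit beside it in the cornified layer were compared at equal share of all 4 keratins. Of 12 genes of filaggrin processing and breakdown, 10 had 20 UMIs or more, Padi3 had too few UMIs and Padi1 has no row. Of the 10, 3 were past 2-fold lower, none past 2-fold higher and 7 within 2-fold, with a median log2 ratio of -0.48, against 11.3% of all genes past 2-fold lower and 28.1% past 2-fold higher. The 3 lower were Klk5, a kallikrein protease of desquamation (-1.39), Prss8, a membrane protease of profilaggrin processing (-1.23), and Hal, which makes urocanic acid from histidine (-1.62). Among the 7 within 2-fold were other proteases of the list, Casp14 at -0.38 (1329 CPM in keratinocyte-rich spots of S1pr2 fl/fl and 754 in K14-Cre), Asprv1 at -0.58 and Blmh at 0.02. The interval of Flg, -2.95 to -2.64, lay below those of all 10 genes on this measure. Matched on Krt1 and Krt10 it did not: 2 of the 10 were past 2-fold lower, Prss8 (-3.03, interval -5.83 to -0.24) and Hal (-1.06), 1 was past 2-fold higher, the protease St14 (1.74), and Klk5 was within 2-fold (-0.69), beside 32.9% and 14.1% of all genes. Flg at -1.33 there had an interval that overlapped those of Prss8, Hal, Klk5, Asprv1 and Spink5.

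Of 6 cornified envelope genes, Lor (-1.22) and corneodesmosin (Cdsn, -1.01) were past 2-fold lower, transglutaminase 1 (Tgm1, 1.33) past 2-fold higher, and Ivl, Tgm3 and Tgm5 within 2-fold, with a median of -0.62, beside the same 11.3% and 28.1% of all genes. These calls also depended on the keratins: matched on Krt1 and Krt10, Lor (-0.24) and Cdsn (-0.83) were within 2-fold, Ivl (-1.64) was past 2-fold lower and Tgm1 (1.06) still past 2-fold higher. On that match 32.9% of all genes were past 2-fold lower and 14.1% past 2-fold higher. Lor was 1762 CPM in keratinocyte-rich spots of S1pr2 fl/fl and 519 in K14-Cre. Per Lor UMI, log2 ratios were -1.60 for Flg, -1.41 for Hrnr and -1.64 for Rptn, and 0.63 for Flg2. Of 9 keratins, Krt1 (-1.18) and Krt10 (-1.10) were past 2-fold lower and Krt2 (1.47, on 19 and 14 UMIs) past 2-fold higher, beside 11.3% and 28.1% of all genes. Matched on Krt1 and Krt10, none of the 8 with 20 UMIs was past 2-fold, beside 32.9% and 14.1% of all genes. Krt5, Krt14, Krt1 and Krt10 set the first match, and Krt1 and Krt10 the second. The calls of these keratins are therefore partly fixed by the matching, and the move of Krt1 and Krt10 to within 2-fold is not a result. Krt6a (-0.49), Krt6b (-0.27), Krt16 (-0.74) and Krt17 (0.19), the keratins of activated epidermis, were within 2-fold. Among the other fused S100 genes of the cluster, trichohyalin (Tchh), a protein of the inner root sheath of hair, had 38 UMIs in keratinocyte-rich spots of S1pr2 fl/fl and 14 in K14-Cre, a log2 ratio of 0.83 (interval -0.10 to 1.77). Crnn (6 and 8 UMIs) and Tchhl1 (12 and 3) were too sparse to compare.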

How the data were processed

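Spatial gene expression was measured in 1 FFPE skin section of each genotype with the Visium CytAssist probe assay. The deposited tables hold whole UMI counts for each gene in each tissue spot, not normalized by the authors, beside the spot positions. The file header names Space Ranger 3.0.0, the labels' processing notes mm10, and the paper Partek Flow. The probe set is not given in the sources used here. Probe counts report hybridised probe pairs, so a gene with more probes yields more UMIs.

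Counts were summed over spots and divided by all UMIs (CPM) with Python 3.11.15, numpy 2.4.6, scipy 1.17.1 and pandas 2.3.3. Intervals (95%) were exact Poisson for CPM, Clopper-Pearson for shares, conditional binomial for ratios, and Greenland-Robins for Mantel-Haenszel ratios, which were tested on simulated data. They cover counting error only. A count of 0 was taken to allow 3 counts. Sums came from 500-UMI spots unless all tissue spots are named. Depth followed array rows within connected groups of at least 20 spots. Spots over 1000 UMIs were thinned with a fixed seed. The genes named are the 4 members, lists for fused S100 relatives, filaggrin processing, cornified envelope and keratins, and the 5 genes most correlated with each member (at least 50 UMIs in each section). Members and lists were chosen with earlier results of these data known. With 1 library a group, no p-value was computed. Alternatives changed the keratin minimum, the keratins matched, the unit, the spots, the depth minimum, thinning and background subtraction. Image scale factors were not used. Promoter sequences and gene coordinates are from RefSeq tables of GRCm38.p6, in which all 4 symbols matched.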

Additional observations from a re-analysis of the deposited data

How the results depend on the processing

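Values are log2 ratios of K14-Cre over S1pr2 fl/fl in the order Flg, Hrnr, Rptn, the 4 summed, where a value left the interval of the reported one. In all 18 alternatives run for each of these, the ratio stayed below 0. Matched on Krt5 and Krt14 they were -3.49, -3.26, -3.54 and -3.40, and on Krt1 and Krt10 -1.33, -1.85, -3.75 and -1.63. In the 2 outermost spots they were -4.25, -4.04, -4.10 and -4.13, and over all tissue spots -4.26, -4.05, -3.84 and -4.11. Without matching, Flg was -3.37, Hrnr -3.18 and the sum -3.29, and per 1000 keratin UMIs Flg was -2.97. From 4% keratins Rptn was -3.63. Thinned to 1000 UMIs, Flg was -2.33 and the sum -2.45. Chosen after seeing the data were 6 alternatives. Per 1000 Krt1 and Krt10 UMIs the ratios were -1.58, -1.39, -1.62 and -1.50, the same in the 2 outermost spots -1.60, -1.39, -1.46 and -1.48, and per Lor UMI -1.60, -1.41, -1.64 and -1.53. With the muscle-rich level taken off, Flg was -2.53 and the sum -2.56. Without the shallowest stretch of S1pr2 fl/fl no value left its interval. Flg2 was -2.57 from 4% keratins, -1.91 over all tissue spots and -2.59 after thinning, and turned positive per Krt1 and Krt10 UMI (0.65; 1.11 in the 2 outermost spots) and per Lor UMI (0.63). The summed outer over deep contrast (log2) was 2.64 in S1pr2 fl/fl and 2.37 in K14-Cre. It was 2.54 and 2.81 by share of the local thickness, 2.12 and 1.73 by distance to the nearest tissue-free position, and 3.29 and 3.15 without the curled end. The enrichment in keratinocyte-rich spots of S1pr2 fl/fl, 2.57, was 2.81 from 0.5% and 2.23 from 2% keratins. Observed over computed co-detection of Hrnr and Rptn in K14-Cre, 0.65 on 5 spots, was 1.76 on 3 spots after thinning. The cause of these moves was not tested. No paired analysis was possible because each group has 1 library. Low UMI counts limit Flg2, and every value in K14-Cre.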
